A study of Mus musculus with 6 samples.

Results

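The 34 genes described here encode proteins of the synapse and of the mature neuron. They were fixed by name, with earlier results of these data known. Each was found on the arrays through the RefSeq accession that its probes carry. They were sorted by role into 13 vesicle and release genes, 8 adhesion genes, 7 postsynaptic scaffold, kinase and receptor genes and 6 axon genes. They are 34 of 19984 genes named on the arrays and 34 of the 13128 genes tested. The 34 genes had 52 probes, of which 49 passed the filter on dim probes, and each gene is given by its brightest probe. That probe was well above background on all 6 arrays for all 34 genes, so none entered the test through 1 group alone.

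Tis21-GFP positive cells were compared with Tis21-GFP negative cells, both sorted in S phase by their DNA content. The tissue was dorsal telencephalon, which becomes the cerebral cortex, taken from mice at embryonic day 14.5. Embryos of both groups were C57BL/6J and carried 1 copy of the Tis21-GFP knock-in, so the negative cells are GFP-negative cells of the same embryos and not wild-type cells. There were 3 arrays of positive and 3 of negative cells. Each replicate pooled 15 embryos (30 hemispheres) and about 200000 sorted cells, and the authors used the 3 experiments they judged best out of 4. The p-values measure the spread between these pools.

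Tis21, also called Btg2, is switched on when neural progenitors turn to divisions that produce neurons, and GFP made in such a progenitor can pass to its daughter cells. A synapse releases transmitter when a SNARE complex of vesicle and plasma membrane proteins draws a vesicle onto the membrane and a synaptotagmin senses calcium. Neurexins and neuroligins join the facing membranes, scaffold proteins hold receptors and kinases on the receiving side, and neurofilaments fill the axon. In the embryonic cortex these genes are known mainly from neurons that have left the cell cycle, with many of them rising as axons grow and synapses form.

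The array's 75th percentile intensity was 212.7 to 311.1 on positive and 283.9 to 340.7 on negative arrays. The share of probes well above background was 51.2% to 52.6% on positive arrays and 52.7% to 56.2% on negative arrays, and 0 spots were saturated. Arrays of 1 group correlated at 0.983 to 0.992 over genes. Values are log2 processed intensities minus the array's 75th percentile, called scaled log2 signal below, and compare 1 probe between arrays, not 1 gene with another. Differences are positive minus negative with the moderated SE and 3 arrays per group. They were tested with limma without pairing the arrays, and p-values were adjusted over all 13128 genes. A gene was called at an adjusted p under 0.05. Btg2 itself had a difference of 0.77 ± 0.17 (limma adjusted p = 0.0139), and the intermediate progenitor gene Eomes 3.42 ± 0.24 (limma adjusted p = 0.000183). The dorsal telencephalon marker Lhx2 was well above background on all 6 arrays, with a difference of 0.45 ± 0.15 (limma adjusted p = 0.0656).

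The synaptic and mature neuron genes were more often lower than higher in Tis21-GFP positive cells. Of the 34, 13 were called lower (38.2%) and 2 higher (5.88%), against 13.1% of all tested genes lower and 12.9% higher. The 13 were Syt1, Cplx1, Nlgn3, Thy1, Cntn2, Camk2a, Camk2b, Gap43, Nefm, Nefl, Ina, Ndrg4 and Reep1, and the 2 were Syn2 and Nsg2. Of the lower ones, 8 fell at least 2-fold, against 7.5% of all genes, and 0 members rose at least 2-fold, against 2.86%. Positive and negative arrays did not overlap for 17 lower members, against 18.6% of all genes, and for 3 higher members, against 28.1%. The median difference of the 34 was -0.48, and that of all tested genes 0.12. Scaling set the zero point: the median of all genes ran from -0.06 to 0.30 over the scalings tried, and 26 of the 34 lay below it in the main setting, 25 to 28 over the 18 alternatives. Median centring gave 3 members higher and 9 lower, and the percentile over detected probes alone gave 2 higher and 18 lower. In bulk samples such as these, fewer cells of a type and less RNA per cell cannot be told apart.

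**Figure D1:**
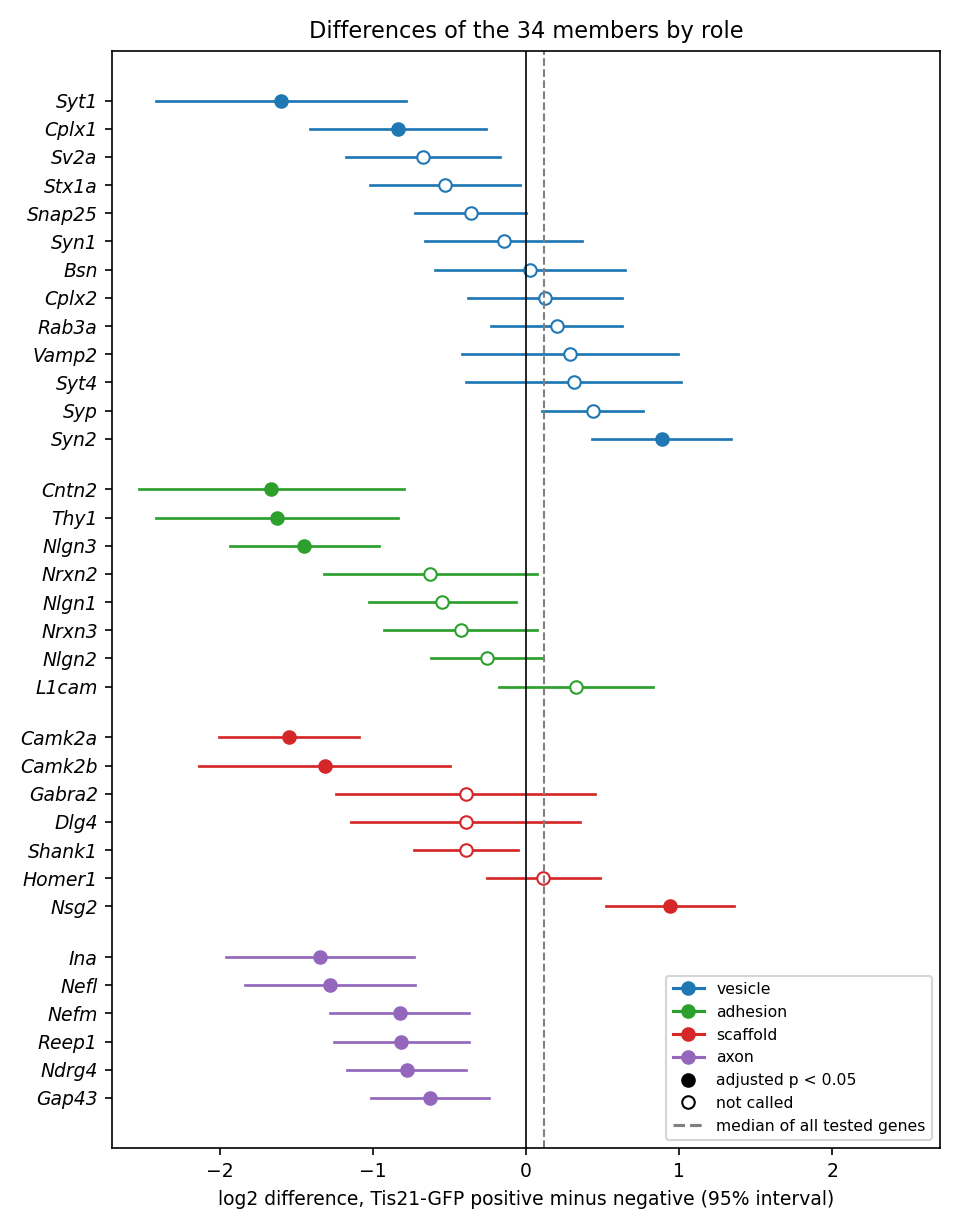
Log2 difference (Tis21-GFP positive minus negative, x axis) of each of the 34 genes with its 95% interval, grouped and coloured by role; filled points are called and the dashed line is the median of all tested genes. All 6 axon genes lie below 0, while vesicle genes run from Syt1 at -1.60 to Syn2 at 0.89.

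Of the 13 vesicle and release genes, 2 were lower (15.4%), 1 was higher (7.69%) and 10 were not called, and the share lower was near the 13.1% of all tested genes. Their median difference was 0.03. It lay between -0.16 and 0.24 over the alternatives, so its sign was not fixed.

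Syt1, the calcium sensor of fast release, had scaled log2 signals of -0.79, -0.89 and -1.87 in positive cells, against 1.05, 0.17 and 0.03 in negative cells. Every positive array lay below every negative one. The difference was -1.60 ± 0.35, a 3.03-fold decrease (limma adjusted p = 0.0139), and the call was kept under all 18 alternatives. Cplx1, a complexin that clamps and primes the SNARE complex, had -0.13, -0.05 and -0.70 in positive cells, against 1.01, 0.27 and 0.35 in negative cells. Those groups did not overlap either, and the difference was -0.83 ± 0.25 (limma adjusted p = 0.0424). Cplx1 lost its call under 11 of the 18 alternatives. They were the 6 that left out 1 array (-0.97 to -0.60), quantile normalization, median centring (-0.65), the authors' own values, no filter on dim probes and all probes fitted together.

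Syn2, a synapsin that tethers vesicles to the cytoskeleton, went the other way. Its signals were 0.90, 0.83 and 0.66 in positive cells, against 0.33, -0.29 and -0.31 in negative cells. The lowest positive array stood above the highest negative one, at a difference of 0.89 ± 0.20, a 1.85-fold increase (limma adjusted p = 0.0143). A second Syn2 probe had a difference of 1.33 ± 0.27. Syn2 was not called without negative replicate 2 (0.785) or negative replicate 3 (0.775). Its paralog Syn1 had 0.89, 1.47 and 0.73 in positive cells, against 1.44, 0.96 and 1.14 in negative cells. The Syn1 groups overlapped, and the difference was -0.15 with a 95% interval from -0.66 to 0.37. The contrast between the synapsins was not itself tested.

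The core SNARE genes were not called. Snap25, which encodes a plasma membrane SNARE, had 3.93, 4.15 and 4.42 in positive cells, against 4.47, 4.58 and 4.53 in negative cells. All positive arrays were below all negative ones, by a margin small enough that the gene did not pass (difference -0.36, 95% interval -0.73 to 0.00, limma adjusted p = 0.125). Snap25 passed without positive replicate 3 (-0.49), under quantile normalization (-0.63), in the authors' own values (-0.64) and when the percentile was taken over detected probes alone (-0.54). Stx1a, its syntaxin partner, had a difference of -0.53 (95% interval -1.02 to -0.04, limma adjusted p = 0.102). It passed without positive replicate 2 (-0.72) and with the percentile over detected probes alone (-0.70). Vamp2, the vesicle SNARE, had 0.29 (95% interval -0.42 to 0.99). On positive arrays Vamp2 was spread over 1.72 to 3.00 and on negative arrays over 1.89 to 2.35.

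Among vesicle membrane proteins, Sv2a, the target of the drug levetiracetam, had -0.67 ± 0.22 (limma adjusted p = 0.0544) with no overlap between groups. With the replicate number as a block its adjusted p was 0.0305, and it also passed without positive replicate 2 (-0.84), with the percentile over detected probes alone (-0.85), with the filter on all 6 arrays and with a variance trend and robust fit. Syp, which encodes synaptophysin, had 2.48, 2.74 and 2.58 in positive cells, against 2.01, 2.20 and 2.29 in negative cells. Its groups did not overlap in the upward direction, at 0.43 ± 0.14 (limma adjusted p = 0.0571, and 0.0464 with the replicate block), and it also passed under median centring (0.62) and with a variance trend and robust fit. Syt4, which encodes another synaptotagmin, had 0.31 (95% interval -0.39 to 1.01). Rab3a, a vesicle GTPase, had 0.20 (95% interval -0.23 to 0.63), and the active zone scaffold gene Bsn had 0.03 (95% interval -0.59 to 0.64). For Rab3a, Bsn, Vamp2, Syn1 and Cplx2 the sign turned under at least 1 alternative.

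Cplx2 depended on the probe. Its brightest probe had 5.68, 6.42 and 6.04 in positive cells, against 6.14, 5.65 and 5.97 in negative cells, a difference of 0.12 ± 0.22 with overlapping groups. Of its other 3 probes, 2 gave 0.23 and 0.14. The remaining one had 5.01, 5.38 and 4.97 in positive cells, against 3.69, 3.62 and 3.59 in negative cells. That probe's difference was 1.49 ± 0.16 (limma adjusted p = 0.00125 over all probes), whose 95% interval of 1.12 to 1.86 lay above the 95% interval of the brightest probe (-0.40 to 0.65). All 4 probes carry the same transcript accession.

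**Figure D2:**
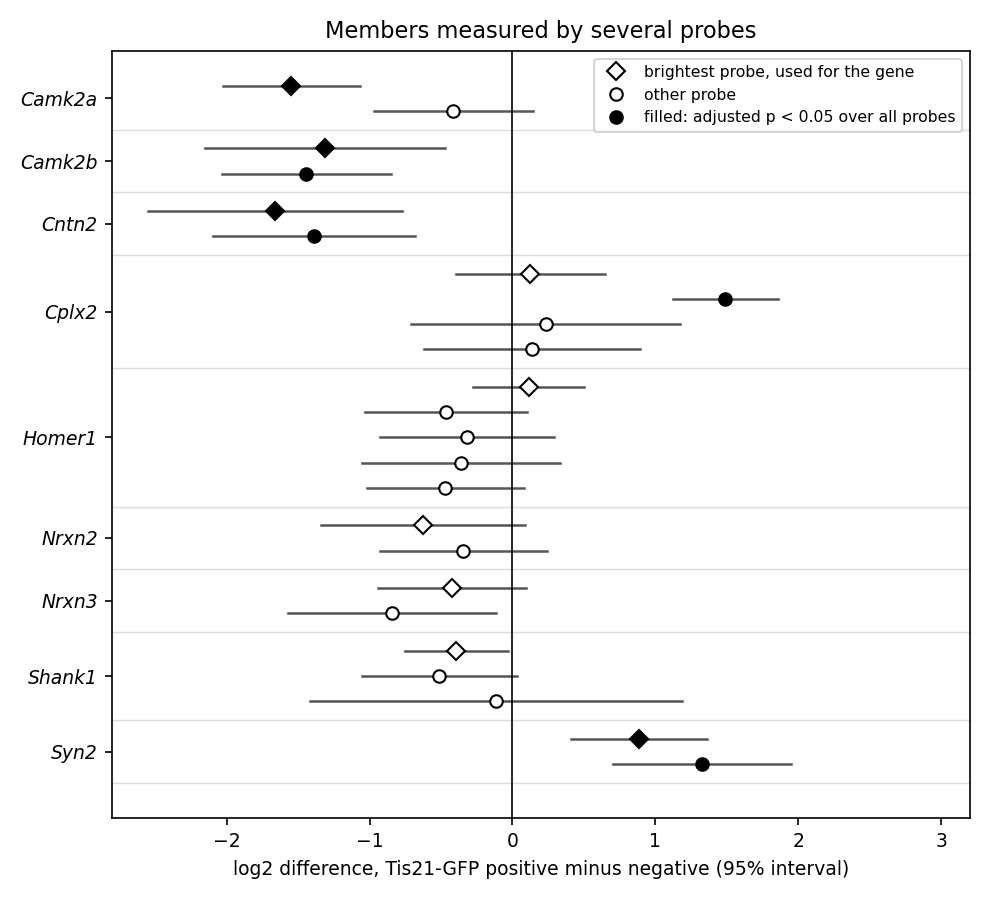
Log2 difference (x axis) with its 95% interval for every probe past the filter of the 9 members that had more than 1; diamonds are the brightest probe, filled symbols passed over all probes. Probes of Cntn2 and Syn2 moved alike, whereas 1 Cplx2 probe stands at 1.49 and the other 3 between 0.12 and 0.23. The second Camk2b probe passed the filter through the negative arrays alone.

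Promoter sequences are shown for 4 members that differ in response: Syt1 and Ina, which were lower, Syn2, which was higher, and Syn1, which was not called. They are the 250 bases before the first listed transcription start, 5′ to 3′ on the gene's strand, from RefSeq (GRCm38.p6). Capitals mark matches to any of 3 motifs searched on both strands. These were GGGCGG (the GC box), TGACGTCA (the cAMP response element) and the core of RE1, the element that the repressor REST binds, with at most 1 mismatch.
Syt1, chr10:109010976-109011225, minus strand: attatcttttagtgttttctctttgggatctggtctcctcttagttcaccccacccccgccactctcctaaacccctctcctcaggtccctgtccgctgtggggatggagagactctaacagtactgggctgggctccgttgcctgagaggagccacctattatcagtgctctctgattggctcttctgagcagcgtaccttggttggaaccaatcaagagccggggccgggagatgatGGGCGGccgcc
Ina, chr19:47014431-47014680, plus strand: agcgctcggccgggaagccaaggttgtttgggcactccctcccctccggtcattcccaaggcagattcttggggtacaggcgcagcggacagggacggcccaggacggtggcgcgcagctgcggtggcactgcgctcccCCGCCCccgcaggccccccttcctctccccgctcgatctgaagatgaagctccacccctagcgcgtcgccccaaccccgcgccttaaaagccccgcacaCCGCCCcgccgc
Syn2, chr6:115134652-115134901, plus strand: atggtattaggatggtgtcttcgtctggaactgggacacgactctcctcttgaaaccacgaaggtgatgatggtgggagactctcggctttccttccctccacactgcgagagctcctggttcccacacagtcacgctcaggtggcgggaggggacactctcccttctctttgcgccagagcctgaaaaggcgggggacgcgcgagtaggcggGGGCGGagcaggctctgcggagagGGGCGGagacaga
Syn1, chrX:20920919-20921168, minus strand: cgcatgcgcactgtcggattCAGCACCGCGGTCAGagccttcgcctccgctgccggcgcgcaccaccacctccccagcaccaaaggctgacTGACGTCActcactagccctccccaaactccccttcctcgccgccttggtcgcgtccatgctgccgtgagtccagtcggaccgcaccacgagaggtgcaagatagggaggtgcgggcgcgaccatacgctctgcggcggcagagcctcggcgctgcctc

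Syn1 alone of the 4 carried an RE1 core match, which began 230 bases before the start, and a cAMP response element 159 bases before it. The RE1 core was found in 53 of 32851 promoters (0.161%) and in 1 of the 37 promoters listed for 23 members. Promoters on chromosome 18 were left out of all these counts. The cAMP response element was in 1.55% of all promoters and in 1 of those 37. GC boxes were in 32.7% of all promoters and in 17 of the 37. The motif matches are letters in these windows and were not tied to any difference in signal. Member promoters had a median GC content of 61.2%, against 52.4% for all promoters.

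Adhesion genes lay mostly below 0. Of 8, 3 were called lower (37.5%), 0 higher and 5 not called, against 13.1% of all tested genes lower and 12.9% higher. Their median difference was -0.59 (-0.76 to -0.33 over the alternatives). The 3 were Nlgn3, Thy1 and Cntn2. Nlgn3 encodes a neuroligin, a postsynaptic partner of neurexins. It had -0.93, -1.72 and -1.38 in positive cells, against 0.29, 0.02 and 0.01 in negative cells. All positive arrays lay well below all negative ones, and the difference was -1.45 ± 0.21, a 2.73-fold decrease (limma adjusted p = 0.00216), called under all 18 alternatives. Thy1, a surface glycoprotein of projection neurons and T cells, had -2.42, -2.84 and -3.60 in positive cells, against -0.78, -1.44 and -1.78 in negative cells. These groups were far apart despite a wide spread inside each, at -1.62 ± 0.34 (limma adjusted p = 0.0114). Cntn2, the axonal adhesion protein TAG-1, had -1.67, -1.71 and -2.87 in positive cells, against 0.20, -0.64 and -0.81 in negative cells. Its difference was -1.66 ± 0.38, a 3.16-fold decrease (limma adjusted p = 0.0152), and a second probe gave -1.39. Without negative replicate 1, Cntn2 had -1.35 and did not pass. With normexp background, Thy1 had -0.69 and Cntn2 -0.99, both still called.

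The other neuroligins and the neurexins did not pass. Nlgn1 had -0.55 ± 0.21 (limma adjusted p = 0.0877, and 0.0492 with the replicate block) with no overlap between groups, and it passed with the percentile over detected probes alone (-0.72). Nlgn2, the neuroligin of inhibitory synapses, had -0.26 (95% interval -0.62 to 0.11). Nrxn2 and Nrxn3, presynaptic receptors for neuroligins, had -0.62 (95% interval -1.32 to 0.07) and -0.42 (95% interval -0.92 to 0.07). L1cam, an adhesion protein of growing axons, had -0.53, -0.56 and -1.10 in positive cells, against -0.72, -1.13 and -1.32 in negative cells. It was the only adhesion gene of the 8 with a positive difference, 0.33 (95% interval -0.18 to 0.83), and its groups overlapped.

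**Figure D3:**
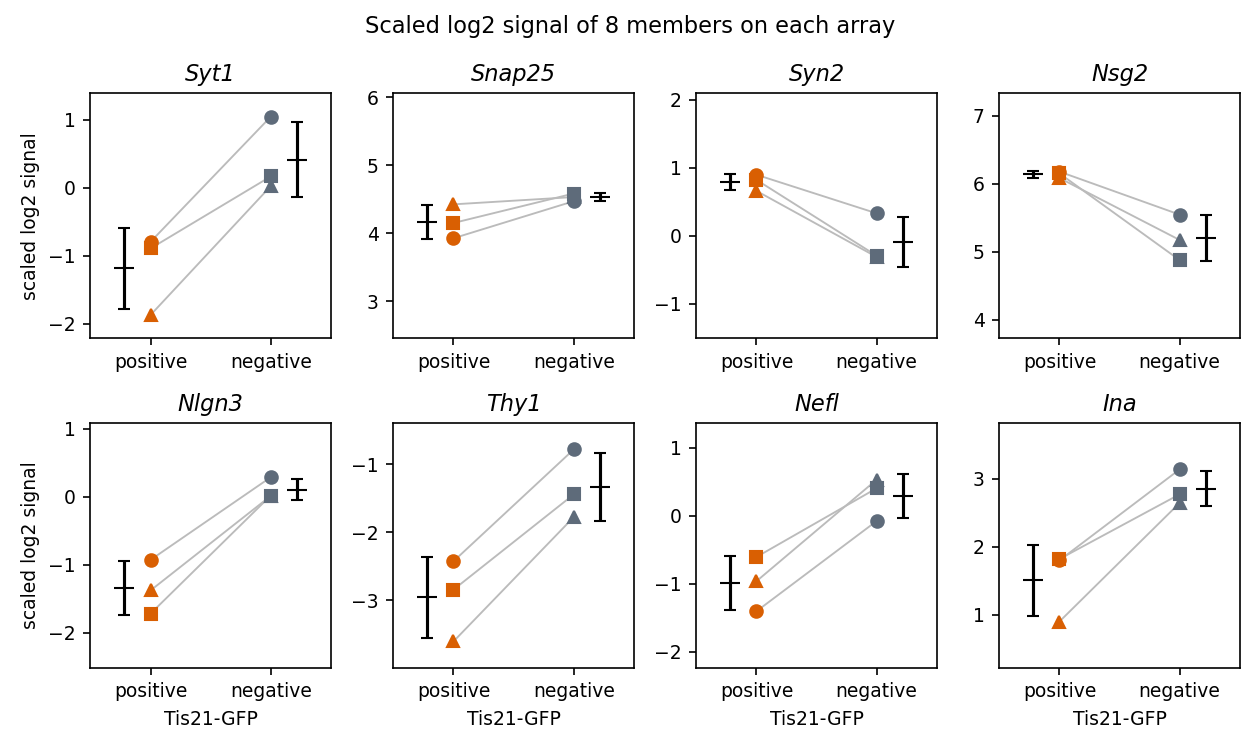
Scaled log2 signal (y axis, the same span in each panel) of 8 members on the 3 Tis21-GFP positive and 3 negative arrays; lines join arrays of the same replicate number (circle 1, square 2, triangle 3), and bars are the mean ± SD. For Syn2 and Nsg2 every positive array is above every negative one, and for the other 6 genes, of which Snap25 was not called, every positive array is below.

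Of the postsynaptic genes, 2 of 7 were lower (28.6%), 1 was higher (14.3%) and 4 did not pass, with a median of -0.39. Among all tested genes, 13.1% were lower and 12.9% higher. The 2 that fell encode subunits of the calcium/calmodulin kinase CaMKII. Camk2a had -2.90, -3.57 and -3.48 in positive cells, against -1.62, -1.90 and -1.79 in negative cells. The groups were far apart, and the difference was -1.55 ± 0.20, a 2.92-fold decrease (limma adjusted p = 0.00122). A second Camk2a probe had overlapping groups and a difference of -0.41 ± 0.24. It became the brighter one when negative replicate 1 or negative replicate 2 was left out, and Camk2a then stood at -0.35 and -0.65 and was not called. The first probe had -1.47 and -1.61 on those same arrays. The mean of both probes gave -0.98 and normexp background -0.68, both called. Camk2b had 0.32, 0.00 and -0.63 in positive cells, against 1.96, 0.96 and 0.72 in negative cells. The difference was -1.31 ± 0.35 (limma adjusted p = 0.0294). A second Camk2b probe gave -1.44, but it was well above background on 1 positive array only. That probe entered the test through the negative arrays alone. Camk2b was not called without positive replicate 2 (-1.37), positive replicate 3 (-1.05), negative replicate 1 (-0.94) or negative replicate 2 (-1.44), nor with no filter on dim probes (limma adjusted p = 0.0737).

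Nsg2, a neuronal endosomal protein that sorts receptors, was the other member called higher. It had 6.18, 6.15 and 6.09 in positive cells, against 5.55, 4.88 and 5.18 in negative cells. Positive arrays were nearly level and all above the negative ones, at 0.94 ± 0.18, a 1.92-fold increase (limma adjusted p = 0.00791). Its call was lost under quantile normalization and in the authors' own values, at 0.65 in both. The scaffold genes Dlg4, which encodes PSD-95, and Shank1 had -0.39 each, with 95% intervals of -1.14 to 0.35 and -0.73 to -0.05. Shank1 did not overlap between groups (limma adjusted p = 0.0853) and passed with the percentile over detected probes alone (-0.57), whereas Dlg4 ran from -0.79 to 0.41 in positive cells and from -0.26 to 0.56 in negative cells. Gabra2, a GABA-A receptor subunit, had -0.39 with a wide interval of -1.24 to 0.45. Homer1, a scaffold that links glutamate receptors to calcium stores, had 0.11 (95% interval -0.26 to 0.48) with its brightest probe and between -0.47 and -0.32 with the other 4, none of which passed. The scaffold median was -0.09 without positive replicate 3 and -0.69 without positive replicate 2.

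All 6 axon genes were called lower in positive cells (100%), against 13.1% of all tested genes. Groups did not overlap for any of the 6, against 18.6% of all genes apart in that direction. Their median difference was -0.82 (-0.99 to -0.64 over the alternatives). The genes of this role were chosen with earlier results of these data known. Of 39 other axon genes, 7 were lower and 11 higher. Of the 6 members, 3 encode neuronal intermediate filaments. Ina, which encodes alpha-internexin, the first such filament of young neurons, had 1.80, 1.82 and 0.90 in positive cells, against 3.14, 2.77 and 2.64 in negative cells. Its difference was -1.35 ± 0.27, a 2.54-fold decrease (limma adjusted p = 0.0087). Nefl, the light neurofilament chain, had -1.40, -0.61 and -0.96 in positive cells, against -0.08, 0.41 and 0.53 in negative cells. It fell by 1.28 ± 0.24 (limma adjusted p = 0.00706), and both Ina and Nefl were called under all 18 alternatives. Nefm, the medium chain, which lies beside Nefl on chromosome 14, had 0.28, 0.39 and 0.96 in positive cells, against 1.22, 1.44 and 1.43 in negative cells. The difference was -0.82 ± 0.20 (limma adjusted p = 0.0189), and positive replicate 3, which was low for most members, was the highest positive array here.

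Gap43, a growth cone protein, had 3.51, 3.61 and 3.24 in positive cells, against 4.33, 4.03 and 3.90 in negative cells, a difference of -0.63 ± 0.17 (limma adjusted p = 0.0287). Ndrg4 had -0.78 ± 0.17 (limma adjusted p = 0.0128). Reep1, a shaper of axonal endoplasmic reticulum, had -0.81 ± 0.19 (limma adjusted p = 0.0174). Of the 6 calls, 3 were left under median centring, which ended those of Gap43 (-0.45), Ndrg4 (-0.60) and Reep1 (-0.63), and 4 with no filter on dim probes, which ended those of Gap43 and Nefm. Gap43 did not pass without positive replicate 1 (-0.66), positive replicate 3 (-0.52), negative replicate 1 (-0.51) or negative replicate 2 (-0.66). Nefm did not pass without positive replicate 1 (-0.69), positive replicate 2 (-0.75), negative replicate 2 (-0.79) or negative replicate 3 (-0.79). Ndrg4 and Reep1 did not pass without negative replicate 1, at -0.69 and -0.71.

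Single arrays stood apart within the groups. Negative replicate 1 was the highest negative array for 29 of the 34 members, against 27.2% of all tested genes. Positive replicate 3 was the lowest positive array for 25 of the 34, against 45.5% of all genes. The median deviation of the members from their group mean was 0.29 on negative replicate 1 and -0.30 on positive replicate 3, where all tested genes had -0.03 and -0.06. The count of lower members was 6 without negative replicate 1 (Syt1, Nlgn3, Thy1, Nefm, Nefl and Ina) and 8 without negative replicate 2, and 10 to 12 without any other. Syt1, Nlgn3, Thy1, Ina and Nefl were the 5 of 15 called members whose calls were kept under all 18 alternatives, and none of the 15 changed sign.

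Between arrays of the same replicate number, 18 members were lower in all 3 pairs, 5 were higher in all 3 and 11 were mixed. These counts were not made over all genes. Pair by pair, 29, 18 and 26 of the 34 members were lower, against 38.9%, 43.0% and 42.9% of all genes. The median difference of the members was -0.74 in pair 1, -0.19 in pair 2 and -0.63 in pair 3, against 0.14, 0.10 and 0.09 for all genes. Axon genes had medians of -0.88, -0.86 and -0.99 in the 3 pairs, whereas vesicle genes had -0.46, 0.52 and -0.21.

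**Figure D4:**
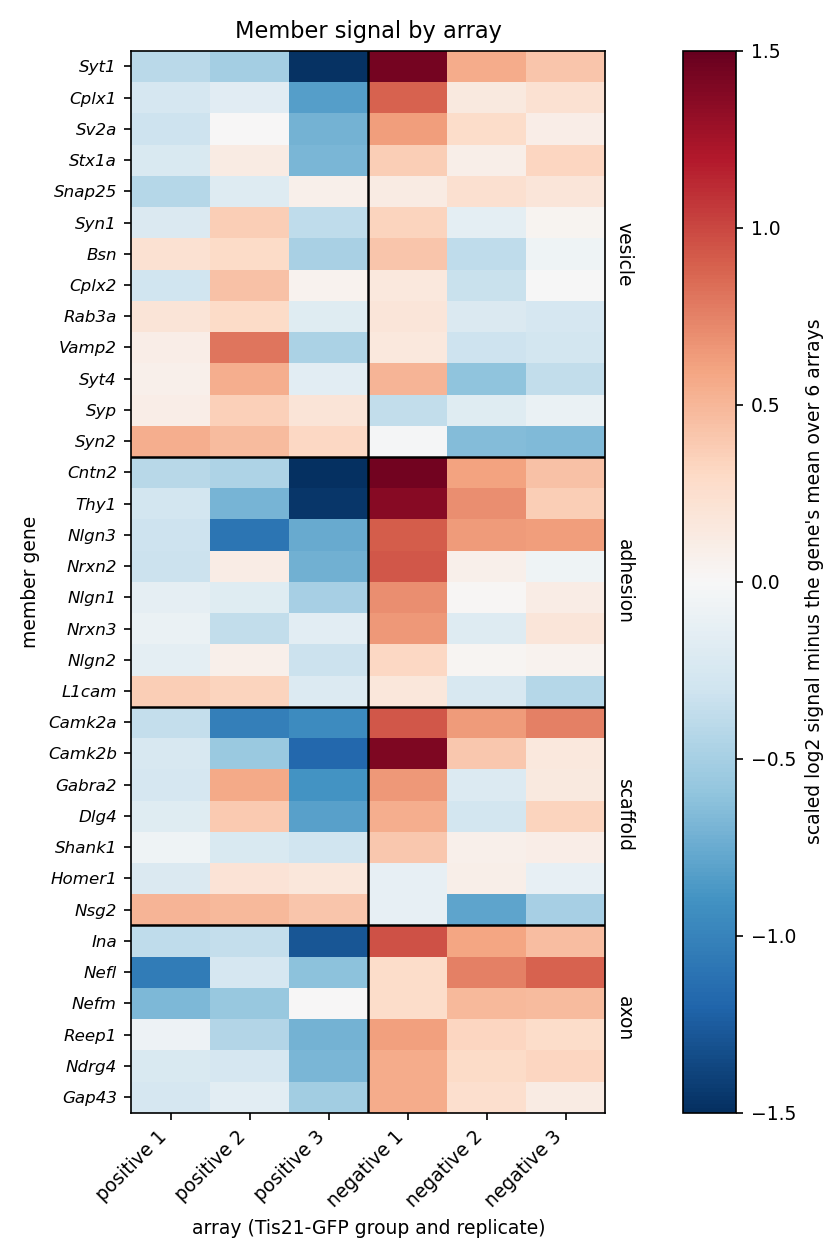
Scaled log2 signal of each member (rows, by role) on each array (columns), as the deviation from the gene's mean over the 6 arrays (colour, log2 units). Negative replicate 1 is the highest negative column in 29 of 34 rows and positive replicate 3 the lowest positive column in 25, and in the axon block every positive array is below every negative one.

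Lists of further genes of the same roles were read from the same fit, which called 13.1% of all tested genes lower and 12.9% higher. A gene called lower that was well above background on only some positive arrays entered the test through the negative arrays alone. The number of such genes was not counted. Of 39 other adhesion genes tested, 17 were lower and 2 higher, with a median of -0.58. Of the 17, Cntnap4 and Ncam2 were not well above background in positive cells on any array and entered the test through the negative arrays alone. Those with the smallest adjusted p were Ntm (-2.61 ± 0.17), which encodes the adhesion protein neurotrimin, and Cadm2 (-2.22 ± 0.21) among the lower, and Lrrn3 (1.93 ± 0.14) and Cbln2 (1.72 ± 0.15), which encodes a neurexin ligand, among the higher. Of 42 other vesicle genes, 7 were lower (16.7%, near the share of all genes) and 1 higher (2.38%), with a median of -0.18. Cadps2, a priming factor for dense-core vesicles, had -1.18 ± 0.13 and the vesicular GABA transporter gene Slc32a1 -1.70 ± 0.22. The 1 that rose was Synpr, which encodes synaptoporin, a relative of synaptophysin, at 1.93 ± 0.18. Of 36 other postsynaptic genes, 14 were lower and 8 higher (median -0.33). A further CaMKII subunit gene, Camk2d, fell by 1.66 ± 0.17 and the kinase-like gene Camkv by 1.81 ± 0.20, whereas Homer2 rose by 0.73 ± 0.13 and Iqsec1 by 0.77 ± 0.14.

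Other axon and neurite genes were called in both directions. Of 39 tested, 11 were higher (28.2%) and 7 lower (17.9%), against 12.9% and 13.1% of all tested genes, with a median of 0.22. Of the 7, Nmnat2 was not well above background in positive cells on any array. Prph, which encodes the intermediate filament peripherin, had -1.64 ± 0.17 and Ndrg2, a relative of Ndrg4 known from astroglia, -1.45 ± 0.15. Tagln3, a neuronal actin-binding protein gene, had 1.49 ± 0.24 and Atl1, which encodes an endoplasmic reticulum GTPase, 0.97 ± 0.15.

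**Figure D5:**
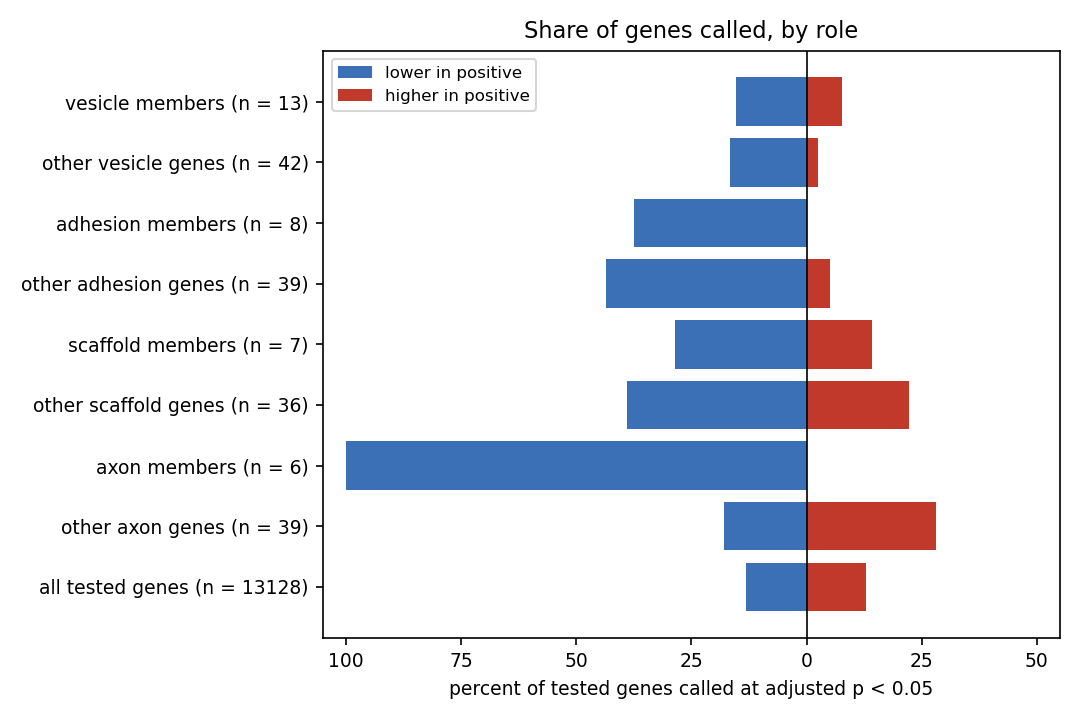
Percent of tested genes called lower (left of 0) and higher (right of 0) in Tis21-GFP positive cells at an adjusted p under 0.05, for the members and the further genes of each role and for all tested genes (bottom). Axon members reach 100% lower, while other axon genes were 17.9% lower and 28.2% higher.

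Markers were read as lists, beside the 13.1% of all tested genes called lower and the 12.9% called higher. Of 15 markers of postmitotic neurons outside the 34, 9 were higher and 1 (Stmn2, at -1.56) was lower. Their summed signal, in multiples of the array's 75th percentile, was 238 to 281 in positive cells, against 111 to 151 in negative cells. The tubulin gene Tubb3 had 0.82 ± 0.17 and Neurod2, a neuronal transcription factor gene, 1.05 ± 0.14. Tubb3, Dcx and Map2 are also on the list of other axon genes. Slc32a1 is both an interneuron marker and on the list of other vesicle genes. Cspg4 is on both the endothelial and pericyte list and the oligodendrocyte lineage list. All 10 intermediate progenitor markers were higher (summed signal 326 to 370, against 46.8 to 70.7), Insm1 and Mfng among them. That list also holds Eomes and Btg2, the locus of the GFP by which the cells were sorted. Of 12 radial glia markers, 9 were lower (154 to 187, against 297 to 340).

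Markers of further cell types were called in both directions. Interneuron and ventral telencephalon markers fell in 5 of 12 (Gad1, Npy, Sst, Maf and Slc32a1), with a summed signal of 28.8 to 30.3 in positive cells, against 34.2 to 38.3 in negative cells. Dlx6, Erbb4 and Lhx8 were not well above background on any array. A marker well above background on some but not all 3 positive arrays could enter the test through the negative arrays alone. The number of such markers was not counted. Some markers called lower were not well above background in positive cells on any array and entered the test through the negative arrays alone, as named for each list. Microglia markers were lower in 10 of 11, P2ry12 in that way (24.0 to 29.7, against 42.6 to 48.0) and meningeal markers in 8 of 8, Col3a1, Lum and Vtn in that way (0.646 to 0.95, against 5.74 to 10.8). Foxc1 and Foxd1 were not well above background on any array. Endothelial and pericyte markers were lower in 6 of 9, of which 4 (Abcc9, Cspg4, Pdgfrb and Rgs5) in that way. Their summed signal, most of it from the uncalled Kdr, was 9.60 to 10.6 in positive cells, against 8.78 to 9.81 in negative cells. Tek and Tie1 were not well above background on any array. Oligodendrocyte lineage markers were lower in 2 of 6, Cspg4 and Pdgfra, both in that way, and higher in 1 (4.67 to 5.27, against 3.05 to 4.02). Cajal-Retzius markers rose in 3 of 7 (3.57 to 5.51, against 1.22 to 1.65), with Calb2 and Ndnf not well above background on any array and Reln, their defining gene, at -1.38 ± 0.49 (limma adjusted p = 0.073). The part of other cell types in the decreases of the synaptic and axon genes was not tested.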

How the data were processed

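RNA of S-phase cells was measured on 1-colour arrays. The deposited scanner files give an intensity for each spot, and the submitters' processing notes name Agilent Feature Extraction 10.7.1.1. A deposited table of the authors' log2 values has a median of 4.67 or 4.671 in each column and a correlation of at least 0.99948 with the scanner log2 intensity, and was read as uncentred log2 from the values alone. How it was made is not stated in the labels. Its differences lay close to those under quantile normalization, at -1.598 and -1.597 for Syt1 and 0.649 and 0.651 for Nsg2. Counts over the alternatives thus hold nearly the same setting under both names.

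Outlier and control spots were left out, replicate spots averaged, and each array's 75th percentile subtracted on the log2 scale. Of 55681 probes, 26364 were named through a RefSeq table (GRCm38.p6). Probes well above background, a flag deposited in the scanner files, on all 3 arrays of a group were kept, and the brightest probe stood for its gene. The comparison used limma 3.58.1 under R 4.3.3 (Benjamini-Hochberg). The fit was tested on simulated data. The number of arrays limits the precision.

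Groups share replicate numbers 1 to 3, and deviations of same-numbered arrays correlated at 0.227, 0.133 and 0.374, so the numbers were read as pairs. The main fit was unpaired all the same, and its SEs, intervals and p-values leave the pairs out. Pairing entered the tests only in the alternative with the replicate block. All arrays shared 1 slide. Replicate 1 of both groups lay in slide row 1, and replicates 2 and 3 in row 2. Positive arrays lay at slide positions 1 and 3 and negative arrays at 2 and 4, so no position held both groups. The members, roles and lists were chosen with earlier results of these data known. Named genes are all members, Btg2 and Eomes, 2 called genes per direction with the smallest adjusted p of each further list, and the 2 brightest markers of each list used. Other genes named, such as markers listed by call, were chosen after their values were seen. A marker that the rule names, and the list total that rests on it, are not reported here. Promoter sequences came from RefSeq without chromosome 18, where Syt4 and Camk2a lie, and covered 23 of the 34 members.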

Additional observations from a re-analysis of the deposited data

How the results depend on the processing

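Of the 15 called members, 5 kept their call and all 15 their sign under all 18 alternatives, which were 5 other backgrounds, scalings or sources of values, 2 filters, the mean of a gene's probes, all probes fitted together, 3 other fits and 6 arrays left out. Of the 19 uncalled members, 6 passed under some alternative and 6 changed sign under some. Quantile normalization left 1 member higher, as did the authors' own values. Leaving out 1 array gave 1 to 2 members higher and 6 to 12 lower. All genes called higher numbered 933 when the percentile was taken over detected probes alone, 1120 in the authors' own values and 895 with no filter on dim probes, against 1687, and 761 to 1732 with 1 array left out, where 1175 to 1709 were lower. All probes fitted together gave 2592 lower. Of all calls, 65.8% were higher under median centring, 29.1% under that percentile, 39.6% under quantile normalization and 39.4% in the authors' own values, against 49.6%. Median centring turned the split of member calls to 25% higher, against 13.3%.

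The scaffold median ran from -0.69 to -0.088 with 1 array left out, the vesicle median from -0.16 to 0.24, the adhesion median from -0.72 to -0.33 and the axon median from -0.92 to -0.80. Signs turned for uncalled members. Cplx2 had -0.157 and Rab3a -0.047 under quantile normalization, and -0.159 and -0.051 in the authors' own values. With the percentile over detected probes alone, Cplx2 had -0.05, Bsn -0.148 and Homer1 -0.061. Syn1 had 0.036 with median centring and Homer1 -0.30 with the mean of its probes. With 1 array left out, Bsn ran from -0.162 to 0.272, Vamp2 from -0.042 to 0.596, Cplx2 from -0.062 to 0.307 and Syn1 from -0.366 to 0.006. The cause was not tested. With the replicate block, 15 members were lower and 3 higher. Sv2a (adjusted p = 0.0305), Nlgn1 (0.0492) and Syp (0.0464) joined the calls, and no other member's call changed. Of 52 member probes, 3 (of Nlgn3 and Nrxn3) were too dim to test. Normexp background moved Thy1 to -0.69, Camk2a to -0.68 and Cntn2 to -0.99.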
